A study of Mus musculus with 5 samples.

Results

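Camta1 encodes calmodulin-binding transcription activator 1, a DNA-binding regulator with a CG-1 domain that is best known from neurons of the brain. SOX11 and SOX4 are closely related transcription factors of the SOX family, which bind short A/T-rich sequences in the minor groove of DNA through an HMG box and bend it, and which act in many embryonic progenitor cells, those of the epidermis included. The binding of both factors at Camta1 is described here from ChIP-seq peaks: 17 of the 21270 peaks of SOX11 and 2 of the 2669 peaks of SOX4 had their centre in the gene body of Camta1 or within 50 kb of it. Camta1 was chosen by its measured count of SOX11 peaks, which is the highest among the genes that the study groups as negatively regulated by SOX11 and SOX4. The count itself, and any density made from it, are therefore given as a description with no test.

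ChIP-seq was done on primary mouse keratinocytes of the genotype Krt14-Cre;Sox11fl/fl;Sox4fl/fl, taken from newborn animals. The sample labels give the background as mixed 129SvEx:C57BL/6, and by the study's methods the Krt14-Cre mice that were crossed in were FVB/N. Every library, the control included, came from cells of this genotype, in which the Krt14 promoter drives Cre in basal keratinocytes and removes both endogenous factors. The cells of the SOX11-FLAG group (2 biological replicates) and the SOX4-FLAG group (2 biological replicates) carried a lentivirus that expressed the FLAG-tagged factor upon doxycycline, given for 1 day, and chromatin was sheared to fragments of 100 to 500 bp and precipitated with an anti-FLAG antibody. The peaks therefore show where an overexpressed tagged factor was found in cultured cells that lack the natural one. The 1 control library is titled input, while its antibody field names IgG, and no peak list of it was analysed here. Each factor has 1 list of peaks for both of its replicates, giving positions only, so neither the depth behind a peak nor a spread between replicates is known. A peak found in the list of 1 factor only was thus not shown to be bound by that factor alone. RNA levels were not analysed here, so the keratinocyte label could not be checked against marker genes.

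In mm9, Camta1 (ENSMUSG00000014592) spans chr4:150433633-151235985 on the reverse strand, a length of 802 kb. The annotation holds 15 transcripts of it with 13 different start positions, and the long coding transcript Camta1-001 has 24 exons. Peaks are numbered here from 1 to 17 by rising coordinate, which runs from the 3′ end of the gene to its 5′ end. The 14 peaks in the gene body all had their centre in an intron, and the other 3 were in the promoters of Per3, Vamp3 and Camta1 itself, a promoter being the stretch from 1 kb before to 100 bp after a transcription start. No SOX11 or SOX4 peak in the window had its centre in an exon.

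The sequences of 4 intronic SOX11 peaks follow, since they show what the peaks of this gene share and where they differ. They are the 4 earliest in the SOX11 list among the intronic peaks with a SOX core or an AP-1 core and no SOX4 peak. All are mm9, forward strand, and capitals mark the SOX core (CATTGT or CTTTGT on either strand) and the AP-1 core (TGACTCA or TGAGTCA, which are each other's reverse complement, so that a place is counted once).
Peak 7, intron 5, chr4:150676429-150676686: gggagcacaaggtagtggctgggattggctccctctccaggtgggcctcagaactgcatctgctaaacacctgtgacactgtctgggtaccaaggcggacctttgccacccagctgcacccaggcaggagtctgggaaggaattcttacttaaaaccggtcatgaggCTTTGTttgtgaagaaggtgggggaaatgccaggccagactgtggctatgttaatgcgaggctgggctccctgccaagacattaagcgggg
Peak 15, intron 3, chr4:151008899-151009156: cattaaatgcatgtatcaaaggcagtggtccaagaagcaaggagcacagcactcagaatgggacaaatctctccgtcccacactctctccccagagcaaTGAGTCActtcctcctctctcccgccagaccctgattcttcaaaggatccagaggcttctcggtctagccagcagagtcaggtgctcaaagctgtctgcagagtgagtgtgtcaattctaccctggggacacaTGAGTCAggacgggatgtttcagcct
Peak 5, intron 11, chr4:150505052-150505309: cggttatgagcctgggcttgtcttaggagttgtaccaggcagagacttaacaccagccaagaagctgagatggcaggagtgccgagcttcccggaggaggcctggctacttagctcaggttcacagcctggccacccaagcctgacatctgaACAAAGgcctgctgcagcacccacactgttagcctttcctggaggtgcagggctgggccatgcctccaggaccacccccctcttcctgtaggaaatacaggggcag
Peak 8, intron 5, chr4:150713674-150713931: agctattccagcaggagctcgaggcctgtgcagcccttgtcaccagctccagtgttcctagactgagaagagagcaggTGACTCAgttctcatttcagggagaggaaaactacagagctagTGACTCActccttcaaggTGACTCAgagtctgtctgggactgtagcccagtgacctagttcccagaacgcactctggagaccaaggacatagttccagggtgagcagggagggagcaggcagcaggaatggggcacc

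Peak 8 held 3 AP-1 cores and peak 15 held 2, with no SOX core in either. Peaks 5 and 7 held 1 SOX core each, and peak 13 held 2, 1 on each strand. Peak 6, present in the lists of both factors, held neither, as was the case for 13.1% of all SOX11 peaks that overlap a SOX4 peak.

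SOX11 peaks were spread over most of the length of Camta1. Read from the 5′ end, the first peak of the gene body was peak 16 (chr4:151120123-151120380), which lay 116 kb downstream of the outermost start, in intron 3. Introns 1 and 2, of 25.7 and 5.28 kb, held none. Intron 3, the longest with 244 kb, held 4 peaks, which were peak 16, peak 15, peak 14 (chr4:150992609-150992866) and peak 13. Intron 4, of 133 kb, held 1, peak 12 (chr4:150848170-150848427).

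Intron 5, of 163 kb, held the most peaks, 5, at a density of 3.06 per 100 kb, against 1.64 in intron 3, 0.752 in intron 4 and 0.793 in intron 6. They were peak 11 (chr4:150781797-150782054), peak 10 (chr4:150721762-150722019), peak 9 (chr4:150720866-150721123), peak 8 and peak 7. Peaks 9 and 10 were separated by 638 bp, the shortest gap at the gene. Over the whole list, 338 of 21250 gaps between neighbouring SOX11 peaks were as short or shorter, or 1.59%. That is a share of single gaps, whereas this gap is the shortest of 16, so the share does not measure how unusual it is. In intron 6, of 126 kb, there was only peak 6.

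Toward the 3′ end, intron 11 held peak 5 and peak 4 (chr4:150502698-150502955), 2096 bp apart on either side of the start of the short transcript Camta1-012. Peak 3 (chr4:150456889-150457146) was in intron 16, of 3.80 kb. By density both of these stood above intron 5, which is longer, with 4.7 SOX11 peaks per 100 kb in intron 11 and 26.3 in intron 16, the latter from its 1 peak. The other 17 introns of Camta1-001 held none. In 4 equal stretches of the gene from the 5′ end, the counts were 1, 4, 6 and 3 SOX11 peaks. Gaps between neighbouring peaks ran from 638 bp to 158 kb with a median of 30.8 kb, beside a median of 36.9 kb over all SOX11 peaks, a difference that is small beside the range of the gaps.

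**Figure D1:**
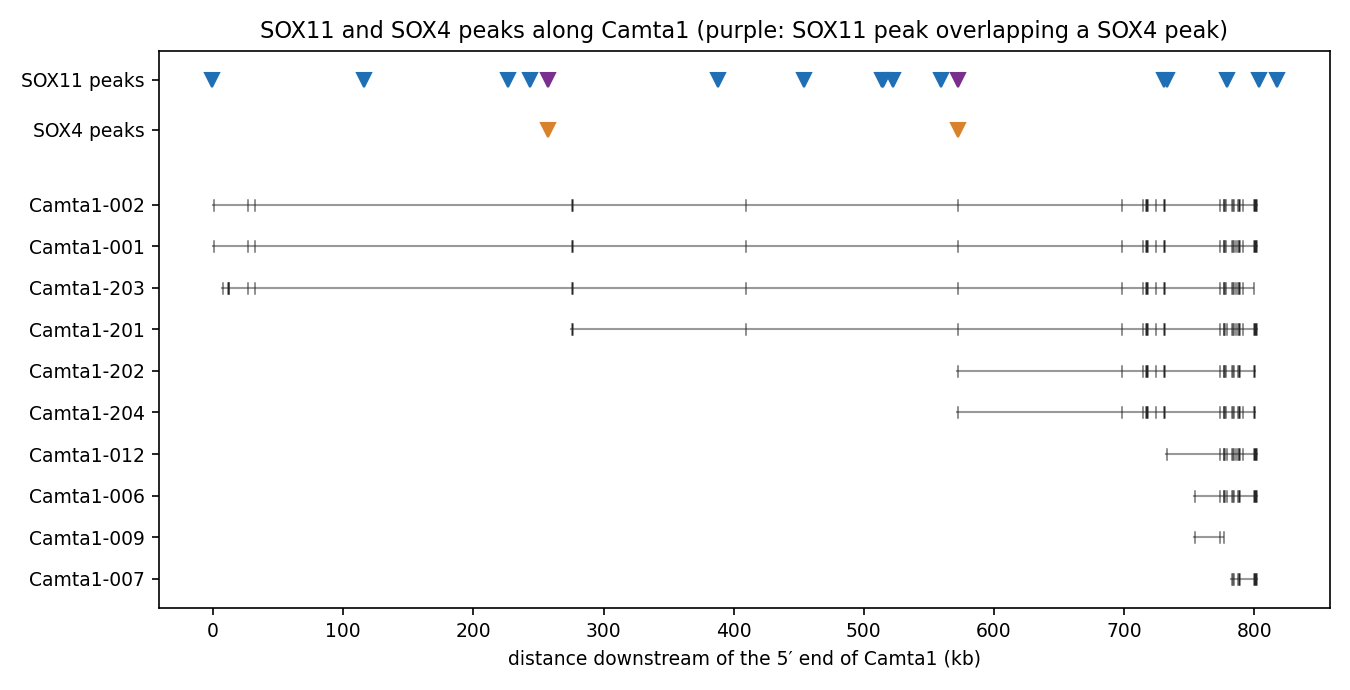
SOX11 peaks (triangles in the upper row, purple where a SOX4 peak overlaps) and SOX4 peaks (orange triangles) by their distance in kb from the 5′ end of Camta1, above the coding transcripts with exons as black bars. The 17 SOX11 peaks run from the Camta1 promoter at the left to the Vamp3 and Per3 promoters at the right, with no peak in the first 116 kb of the gene body, and the 2 SOX4 peaks sit at 257 and 573 kb.

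The share of peaks in introns follows from the choice of window and is no finding. Of the window, 90.1% was intron by the same rule, and 14 of 17 members (82.4%) were intronic, against 33.4% of all SOX11 peaks. More informative is how far these peaks lay from a start. The 14 intronic peaks were 778 bp to 118 kb from the nearest annotated start, with a median of 40.3 kb, beside a median of 12.9 kb for the 7106 intronic SOX11 peaks. For 3 of the 14, peaks 11, 12 and 16, that distance was over 100 kb, as it was for 6.29% of intronic SOX11 peaks. A gene of this length leaves more room far from a start, which this comparison does not take out.

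Among the 14 intronic peaks, peaks 4 and 6 were within 1 kb of a start (14.3%), as were 12.0% of all intronic SOX11 peaks. Peak 4 lay 778 bp downstream of the start of Camta1-012, and peak 6 lay 896 bp downstream of a start that a pair of shorter coding transcripts share. Both of these are internal starts, 732381 and 571810 bp from the 5′ end of the gene.

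The promoter peak of Camta1, peak 17 (chr4:151236373-151236630), was centred 516 bp upstream of the outermost start. The promoter peak of Vamp3, which encodes a vesicle SNARE protein, was peak 2 (chr4:150432018-150432275), centred 74 bp upstream of its start. The promoter peak of Per3, a circadian clock gene, was peak 1 (chr4:150418805-150419062), centred 159 bp upstream. These 3 peaks had 31 to 36 CpG dinucleotides in 258 bp and a GC content of 70.9 to 74.0%, and none held a SOX core or an AP-1 core. Of all SOX11 peaks, 30.2% held neither core. The share over promoter SOX11 peaks alone is not given here, so a trait of this locus was not shown. Each of the 3 promoter peaks held 3 or more GC boxes (GGGCGG on either strand), a sequence common in promoters rich in CpG. Over all 17 peaks, 3 held this sequence (17.6%), against 24.7% of all SOX11 peaks. No intronic peak of Camta1 held it (0 of 14, 95% exact binomial interval 0 to 23.2%), against 13.5% of all intronic SOX11 peaks. The interval includes 13.5%, so a lower share at Camta1 was not shown.

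The intronic peaks had 2 to 16 CpG dinucleotides and a GC content of 45.0 to 58.9%, with a median of 54.8%. Their range did not overlap that of the 3 promoter peaks on either measure. Over the whole list the ranges did overlap, with a GC content of 29.1 to 82.9% in intronic and 24.6 to 84.1% in promoter SOX11 peaks. Their CpG counts were 0 to 45 and 0 to 53, with medians of 3 and 21. The median GC content was 50.0% over all intronic SOX11 peaks and 64.7% over all promoter ones. The Camta1 gene body as a whole had 49.2%. Peak 4 with 16 CpG dinucleotides and peak 13 with 14 were the richest. A count of 14 or more was found in 8.01% of intronic SOX11 peaks. Gm13090, the coding gene annotated inside Camta1 on the forward strand, had no peak in its body. The rule for members left out no peak close to its border: the nearest SOX11 peaks outside the window were 85.8 kb beyond the 3′ end of Camta1 and 71.8 kb beyond its 5′ end, the latter in the promoter of Dnajc11, while the outermost members were 14.7 kb and 0.516 kb from the gene.

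Camta1 stood near the top of long genes in SOX11 peak density. With 14 peaks in 802 kb it had 1.74 peaks per 100 kb, beside a median of 0.148 and an interquartile range of 0 to 0.518 over the 308 protein-coding genes of 0.5 to 2 times its length, 131 of which had no peak. It ranked 7 of 308. By count alone, Pard3 with 15 and Arfip1 with 21 had more and Rbms3 had as many, of which Arfip1 and Rbms3 were named after their values were seen. The 308 genes together had 671 SOX11 peaks, or 0.333 per 100 kb, against 0.806 per 100 kb over the genome, so that long genes as a class were poor in peaks and Camta1 was not.

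All 10 comparison genes, chosen by their density, were shorter than Camta1. The 5 genes with the highest density were Pard3 (2.74 peaks per 100 kb in 548 kb), which encodes a cell polarity scaffold, Maml3 (2.40 in 417 kb), a Notch coactivator gene, Syn3 (2.25 in 444 kb), a synapsin gene, Ank3 (2.03 in 493 kb), which encodes a membrane-cytoskeleton adaptor, and Atxn1 (1.95 in 410 kb), the ataxin-1 gene. The 5 nearest to Camta1 in density were Rabgap1l (1.74), Trappc9 (1.70), Lpp (1.67), a focal adhesion gene, Fhod3 (1.65), an actin nucleator gene of the formin family, and Dnm3 (1.61), a dynamin gene. When the length range was narrowed to 0.75 to 1.5 times that of Camta1, it ranked 1 of 107 genes.

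**Figure D2:**
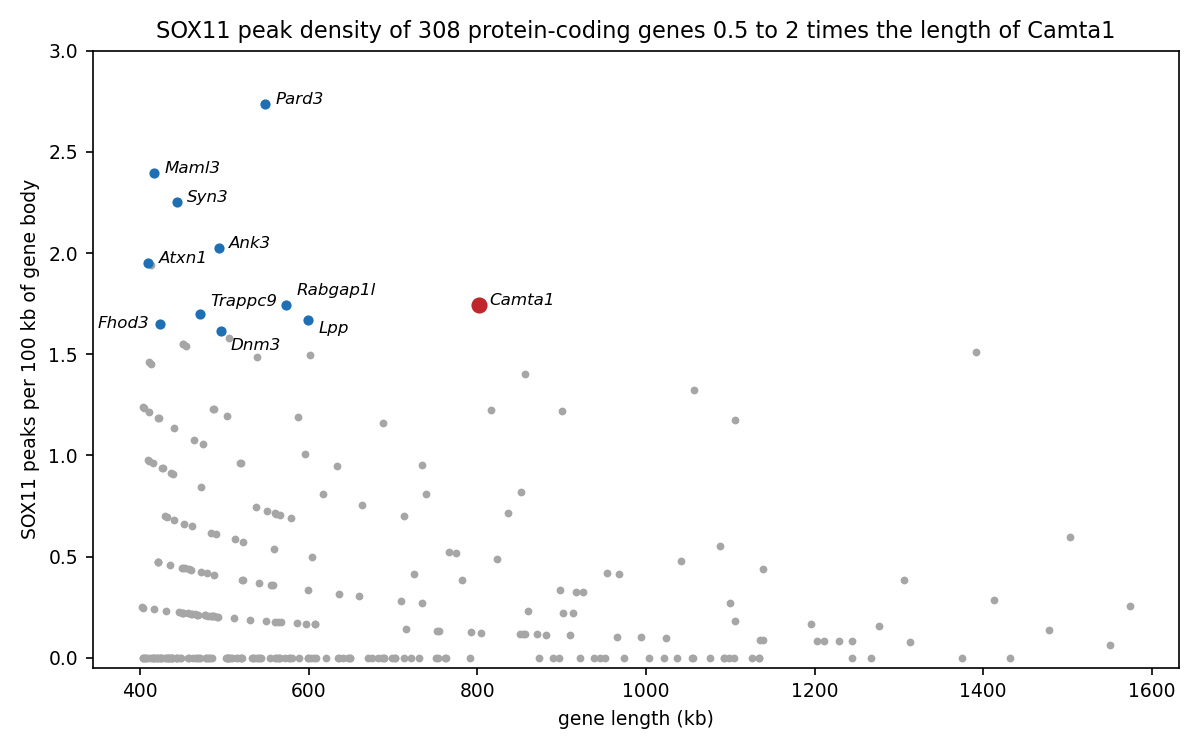
SOX11 peaks per 100 kb of gene body against gene length in kb for 308 protein-coding genes of 0.5 to 2 times the length of Camta1, 1 point per gene, with Camta1 in red and the 10 comparison genes in blue. Camta1 at 802 kb and 1.74 lies above all other genes longer than Pard3 at 548 kb, and most points are between 0 and 0.5.

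SOX4 had 2 peaks in Camta1. The gene was chosen by its SOX11 count and not by this one, although the study's gene list asks for a peak of either factor. The SOX4 count and its rank are still not independent of that choice, since nearly all SOX4 peaks lie on SOX11 peaks. They are given as a description with no test. The SOX4 peaks of Camta1 were in intron 3, number 231 of 2669 in the SOX4 list, and in intron 6, number 986. Their centres were 10 bp and 1 bp from those of SOX11 peaks 13 and 6. No other SOX4 peak was found within 100 kb of the gene. At 0.249 peaks per 100 kb, Camta1 ranked 14 of 308 genes, where 259 had no SOX4 peak, 32 had 1 and 17, Camta1 among them, had 2 or more. With 1 peak fewer it would have been among the 32, and no replicate error can be set beside the rank.

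The share of the Camta1 peaks that both factors occupied was that of the whole list. Of the 17 SOX11 peaks, 2 overlapped a SOX4 peak by at least 1 bp (11.8%, 95% exact binomial interval 1.46 to 36.4%), against 11.9% of all SOX11 peaks and 11.9% of the intronic ones. In the 10 comparison genes it was 11 of 96 peaks, or 11.5%. Intervals here cover counting error over the peaks of a list, which are not replicates.

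The 2 shared peaks lay apart in the SOX11 list, which is not in genomic order and whose order has no stated meaning. Peak 13 was number 3544 of 21270, the earliest of the 17, and peak 6 was number 14500. SOX11 peaks that overlap a SOX4 peak were mostly early, with a median number of 1971.5 and 1893 of 2522 in the first 25% of the list. Only 152 of them (6.03%) stood at number 14500 or later, so peak 6 came later than most of them.

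The other peaks of Camta1 also stood late. The intronic peaks ran from number 3544 to number 20492 with a median of 15796, beside 10403 for all intronic SOX11 peaks. Over all 17 the median was 17093, and 9 of them (52.9%) were in the last 25% of the list. Peak 7 at number 5987 was the next after peak 13, and the 15 others were all at number 10541 or later. The 3 promoter peaks were at 15588, 18003 and 19110. Peaks 11 and 12 had adjoining numbers, 18172 and 18173. Among the 10 comparison genes the median number ran from 4126 for Trappc9 to 17516 for Ank3, so a late median was not particular to Camta1. None of its peaks was among the first 2669 of the list, as many as the SOX4 list holds.

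**Figure D3:**
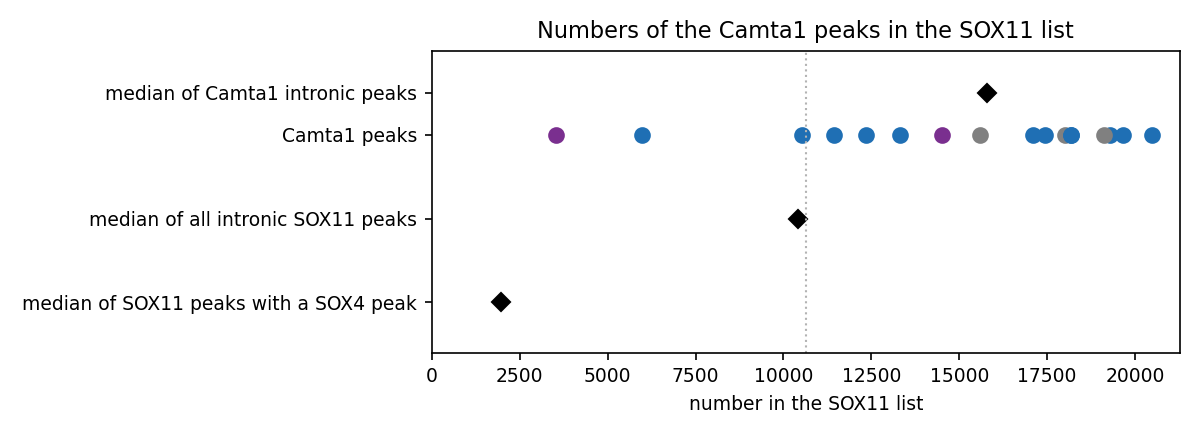
Number of each of the 17 SOX11 peaks in the SOX11 list (purple: overlapping a SOX4 peak, grey: promoter peaks, blue: other intronic peaks; numbers 18172 and 18173 fall on each other), with diamonds for the medians of 3 sets and a dotted line at the middle of the list. The median of the intronic Camta1 peaks, 15796, is to the right of that of all intronic SOX11 peaks, 10403, and far to the right of that of SOX11 peaks with a SOX4 peak, 1971.5.

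The sequences of the peaks separated them into groups. A SOX core was found in 6 of the 17 (35.3%, interval 14.2 to 61.7%), against 58.5% of all SOX11 peaks, and all 6 were intronic. Among intronic peaks it was 6 of 14 (42.9%, interval 17.7 to 71.1%), against 66.3% of the 7106 intronic SOX11 peaks. Windows of the same width 2 kb downstream of the peaks, used as a background, held it in 6 of 17 cases (35.3%), as many as the peaks themselves, and in 32.2% of cases over the whole list. For the intronic peaks it was 3 of 14 windows (21.4%), against 30.9% for all intronic ones. Both intervals include the value of the larger set, though near their upper end, so a lower share at Camta1 was not shown.

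Peak 4 had 3 SOX cores, peak 13 had 2, and peaks 5, 7, 9 and 16 had 1 each. In peak 4 the middles of 2 cores were at -7.5 and 10.5 bp from the centre, whereas in peaks 9 and 13 the nearest was at 112.5 and 74.5 bp. The match of peak 5 was part of the longer sequence CTTTGTTC, on the reverse strand, which no other member held and which 9.53% of all SOX11 peaks held. The shorter sequences CATTG or CTTTG were found in 11 of the 17, against 80.1% of all SOX11 peaks and 72.1% of the windows 2 kb downstream of them, and peak 6 had neither within its 258 bp.

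AP-1, the dimer of FOS and JUN family proteins, is an abundant activator in keratinocytes. Its core was found in 8 of the 17 peaks (47.1%, interval 23.0 to 72.2%), against 28.5% of all SOX11 peaks. All 8 were intronic, so that the share among intronic peaks was 8 of 14 (57.1%, interval 28.9 to 82.3%), against 33.2% of all intronic SOX11 peaks. None of the 17 windows 2 kb downstream held it, and 4.59% of such windows did over the whole list. The intervals include the values of the whole list, so a higher share at Camta1 was not shown either.

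The AP-1 peaks were in introns 3, 5 and 16. Peak 8 had 3 cores, peaks 10 and 15 had 2, and peaks 3, 9, 11, 14 and 16 had 1. In peaks 8 and 10 a core lay 4 bp from the centre, and in peak 14 it was at the very edge of the peak, 126 bp from the centre. Both shared peaks lacked it, where 25.2% of all SOX11 peaks that overlap a SOX4 peak held it. The 12 AP-1 cores in the 14 intronic peaks were 8.28% of the 145 cores in the whole gene body, of which these peaks cover less than 1%. Per kb this is 3.32 in the peaks against 0.181 in the gene body. The SOX core, with 9 matches in the peaks and 995 in the gene body, had 2.49 per kb against 1.24.

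A stretch of peak 16 and those around the most central AP-1 core of peaks 10 and 11 show this core with and without a SOX core beside it, with the cores in capitals on the forward strand of mm9.
Peak 16, chr4:151120206-151120259: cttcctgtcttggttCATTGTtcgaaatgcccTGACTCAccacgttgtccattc
Peak 10, chr4:150721868-150721904: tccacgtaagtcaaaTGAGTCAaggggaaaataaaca
Peak 11, chr4:150781970-150782006: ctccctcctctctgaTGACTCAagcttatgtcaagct

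Both cores stood in the same peak in only 2 cases, peak 16, where their middles were 17.5 bp apart, and peak 9, where they were 83.5 bp apart. Both together were found in 2 of 17 members (11.8%) and in 17.2% of all SOX11 peaks. Neither core was found in 5 of the 17, the 3 promoter peaks with peaks 6 and 12, as in 30.2% of all SOX11 peaks. The core GGAATG of the TEAD factors, which act in the Hippo pathway, was in 1 member, peak 8 (5.88%, interval 0.149 to 28.7%), against 22.8% of all SOX11 peaks. It was also in 1 of the 17 windows 2 kb downstream, against 13.4% of such windows over the whole list. The interval includes 22.8%, so a lower share at Camta1 was not shown.

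**Figure D4:**
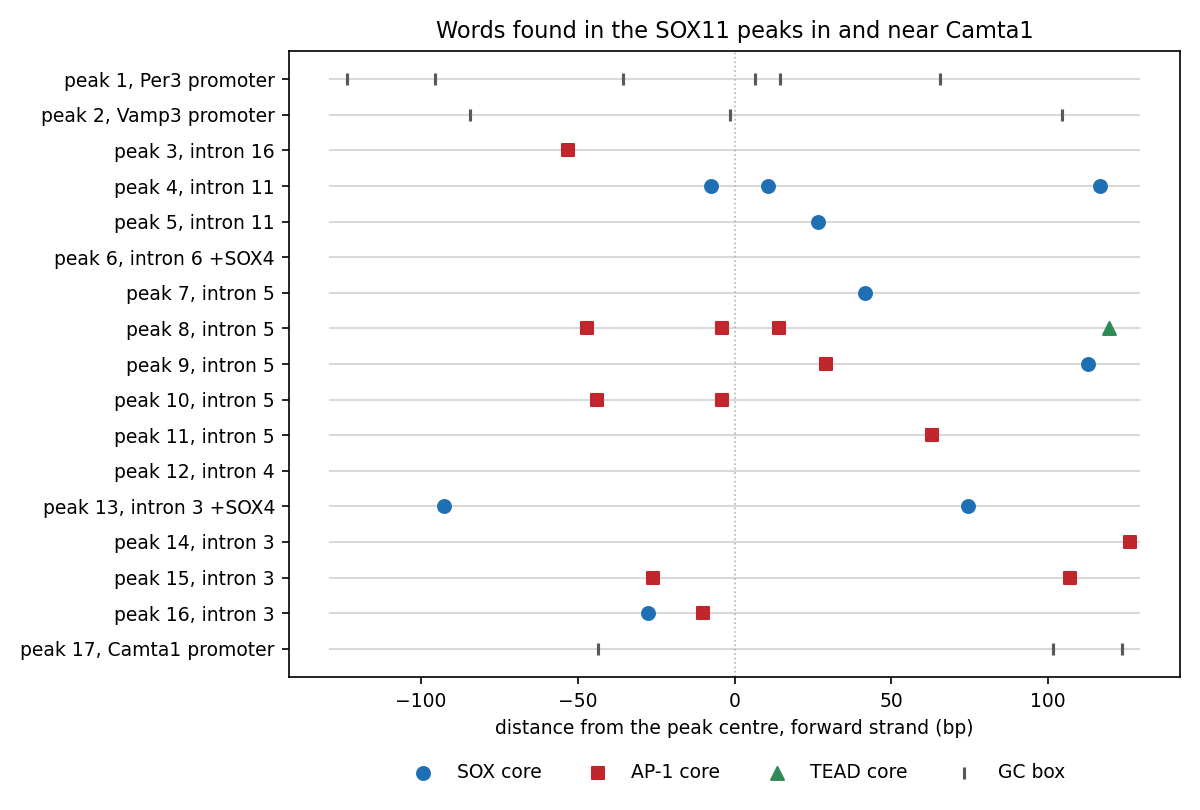
Positions of the SOX core (blue circles), AP-1 core (red squares), TEAD core (green triangle) and GC box (grey bars) in each of the 17 SOX11 peaks, as the distance in bp from the peak centre on the forward strand; grey lines mark the peaks' extent. GC boxes are in the 3 promoter peaks and no others, AP-1 cores in 8 intronic peaks, SOX cores in 6, and peaks 6 and 12 have none of the 4.

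The comparison genes varied as much among themselves. The share of a gene's SOX11 peaks with an AP-1 core ran from 10.0% in Maml3 and Syn3 to 62.5% in Atxn1 and Dnm3, and Camta1 with 57.1% was below these last ones and above the other 8. The share with a SOX core ran from 40.0% in Lpp to 86.7% in Pard3, and Camta1 with 42.9% was above Lpp alone. Pard3, with 13 of 15 peaks holding a SOX core and 2 an AP-1 core, and Camta1, with 6 and 8 of 14, were thus far apart. Pooled over the 10 genes, 31.2% of 96 peaks held an AP-1 core and 66.7% a SOX core. With 7 to 15 peaks a gene and no replicate error, these differences were not tested.

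**Figure D5:**
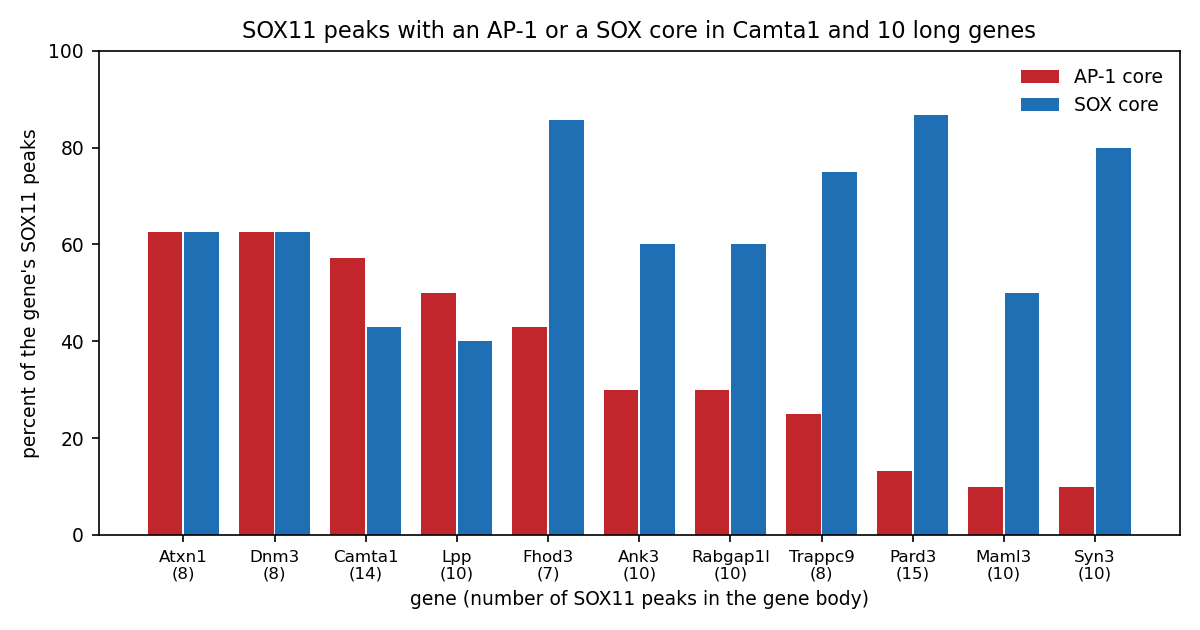
Percent of each gene's SOX11 peaks that hold an AP-1 core (red bars) or a SOX core (blue bars), for Camta1 and 10 long genes, with the number of peaks in the gene body in parentheses. Camta1 and Lpp are the genes where the AP-1 bar is the taller, and in Atxn1 and Dnm3 the bars are equal.

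The 2 shared peaks were the most repetitive of the 17. In peak 6, 40.2% of the 8-base stretches occurred more than once within the peak, a value reached by 39 of the 21255 SOX11 peaks of the same width (0.183%). In peak 13 it was 11.6%, reached by 5.23% of SOX11 peaks. In the 15 other peaks it was 0 to 5.58% with a median of 2.39%, beside a median of 1.59% over all SOX11 peaks, of 0.797% over the intronic ones and of 1.59% over those that overlap a SOX4 peak. Shared peaks in general were thus not more repetitive by their median. A link between repetition and overlap was not tested, and 2 shared peaks of 1 gene could not show one. The part of repetition in the peak calls was not tested either. Without peak 6, 1 of 16 SOX11 peaks overlapped a SOX4 peak (6.25%).

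The 3 other genes that the study groups with Camta1 as negatively regulated had fewer peaks in their bodies. Slco3a1, an organic anion transporter gene, had 3 intronic SOX11 peaks in 279 kb, Chit1, the chitotriosidase gene, had 2 in 40.3 kb, and Rasgrp1, a RAS activator gene, had 1 in 63.0 kb. Per 100 kb these are 1.07, 4.96 and 1.59, so Camta1 had the most peaks but not the highest density. All 6 were intronic, at 1.89 to 61.5 kb from the nearest start. Peaks counted in gene bodies are mostly intronic, so this is no finding. In the comparison genes the intronic peaks ran from 6 of 8 in Trappc9 to all, as in Lpp with 10 of 10. Of the 6, 1 peak of Slco3a1 (chr7:81602585-81602842), with 1 SOX core and 2 AP-1 cores, overlapped a SOX4 peak. It was number 9636 of the SOX11 list. Camta2, the paralogue of Camta1, had 1 SOX11 peak, at its promoter (chr11:70501277-70501534), 31 bp downstream of the nearest start. Like the promoter peak of Camta1 it had no SOX core, no AP-1 core and no SOX4 peak. Of all SOX11 peaks, 30.2% held neither core and only 11.9% overlapped a SOX4 peak, so these absences do not set the paralogues apart. The Camta2 peak had a GC content of 74.4% and 31 CpG dinucleotides. Over all promoter SOX11 peaks the medians of GC content and CpG count were 64.7% and 21.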

How the data were processed

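Peak lists of SOX11-FLAG and SOX4-FLAG ChIP-seq were analysed. The authors mapped the single-end reads to mm9 with Bowtie2, discarded duplicates with Picard, called peaks with the factor style of HOMER and took out blacklisted regions with bedtools; versions, thresholds and the control used are not given in the sources used here. The deposited columns are peak coordinates, another kind of value than a count or signal, for 2 replicates of a factor combined. Starts were read from 0 and printed from 1.

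A peak was placed by its centre in promoters, then exons, introns or between genes, using all transcripts of protein-coding genes of GENCODE vM1, whose assembly is that of mm9. Gene density counted centres in the gene body. Sequences came from the mm9 genome. Python 3.11.15, numpy and scipy were used. Overlap, placing, counting and sequence search were checked on simulated data and returned the planted answers. The members, gene lists and sequences searched were chosen with earlier results of these data known. Named genes were coding genes within 50 kb, the genes grouped with Camta1 by the study, Camta2, and 5 genes each of highest and of nearest density. The sequences of the 2 peaks shared by both factors are not reported here.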

Additional observations from a re-analysis of the deposited data

How the results depend on the processing

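Of 29 alternatives to 10 results, 24 stayed within 1.5 times a count or within the 95% interval of a share, and 5 did not. With so few peaks the intervals of the peak shares are wide, as with 14.2 to 61.7% for the SOX core. Staying within them is therefore a loose criterion and does not show that a share is stable. With a length range of 0.75 to 1.5 times that of Camta1, the share of other genes with a lower density rose from 98.0 to 100% for SOX11 and from 95.8 to 99.1% for SOX4, over 107 genes rather than 308. With only as many of the first SOX11 peaks as the SOX4 list holds, 278 of the 308 genes had no peak. Camta1 was among them, which fixes that share at 0%. The TEAD core share was 0% within 50 bp of the centre, since its 1 match lies outside. The SOX core share was 17.6% (3 of 17) with CATTGT alone, which is within the interval of the main value, and 64.7% with the shorter sequences CATTG and CTTTG, as chosen after seeing the data, since a shorter sequence matches more often. Within 50 bp of the centre the SOX core share was 23.5% (4 of 17, interval 6.81 to 49.9%), against 45.7% of all SOX11 peaks. The AP-1 core share there was 29.4% (5 of 17, interval 10.3 to 56.0%), against 15.1%. Both intervals include the value of the whole list, so neither difference was shown. With promoters of 1 kb to each side, the intronic share was 70.6%, since peaks 4 and 6 became promoter peaks. Of the alternatives, 7 were chosen after seeing the data. No paired analysis was possible because each list combines the replicates, and none could be left out. Depth is unknown, so a peak missing from a list may be below its threshold.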
